A study of Mus musculus with 2 samples.

Results

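Transcripts of 31 genes that fold, check and dispose of proteins in the endoplasmic reticulum (ER) were compared between MIN6 cells expressing C2cd4a-GFP and MIN6 cells expressing control-GFP. The members were chosen by name as ER chaperones, disulfide enzymes, components of ER-associated degradation (ERAD) and sensors of unfolded protein, and each of the 31 symbols matched 1 of 27179 gene rows in the deposited count table. MIN6 is a mouse insulinoma line that makes and secretes insulin. Adenovirus delivered both constructs (multiplicity of infection, 100), and cells were harvested after 72 to 96 h. The C2cd4a-GFP group carries C2cd4a fused to green fluorescent protein. The other group is labelled control-GFP, with no further description of its construct. In the labels' treatment field the C2cd4a-GFP virus is named for both libraries, so the groups rest on the sample titles and characteristics. There was 1 library per group, from a single cell line, so no difference has a replicate check and none can be tested here as a difference between conditions.

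Beta cells make proinsulin in very large amounts, and the ER of these cells carries a correspondingly heavy folding load. Nascent chains enter through the Sec61 channel, are held by the chaperone BiP and by the lectins calnexin and calreticulin, and are cross-linked by protein disulfide isomerases. Chains that fail are passed by EDEM proteins to the HRD1 ubiquitin ligase complex and are degraded in the cytosol, a process called ERAD. IRE1, PERK and ATF6 sense unfolded protein in the ER lumen and start the unfolded protein response, in which ATF6 and the IRE1 product XBP1 raise chaperone and ERAD genes while PERK raises ATF4.

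The libraries held 30164106 counts (C2cd4a-GFP) and 31039999 counts (control-GFP). Levels are given as CPM, the count scaled to library size after TMM normalization, and differences as the log2 ratio of C2cd4a-GFP over control-GFP with a 95% exact counting interval in parentheses, which covers counting error only. C2cd4a itself had 49238 against 133 counts. All 10 beta-cell markers examined reached 1 CPM in MIN6, and their summed level was 79610 CPM in C2cd4a-GFP and 90930 CPM in control-GFP. Of 8 acinar markers 5 had 0 counts in both libraries and the sums were 1.73 and 1.31 CPM, of 6 fibroblast markers 4 had 0 counts and the sums were 1.08 and 1.27 CPM, and 6 ductal markers summed to 42.3 and 53.8 CPM, with Sox9 and Krt19 at 0 counts. Alpha-cell markers summed to 665 and 546 CPM, mostly from Ttr (586 and 493 CPM). The part of these differences in the ER gene values was not tested.

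The ER genes differed little between the libraries, some being higher and some lower in C2cd4a-GFP. Their median log2 ratio was -0.02 against -0.01 over the 12759 genes tested, those whose mean reached 1 CPM. All 31 members passed that minimum, 30 of them with a mean of at least 30 CPM. Log2 ratios ran from -0.46 for Edem2 to 0.46 for Ern1, so no member reached a 1.5-fold difference. The 1.5-fold size rule, which also requires an interval excluding equal levels, was met by 0 of 31 members in either direction, against 4.23% of all tested genes higher and 4.23% lower (8.46% in either direction, and 3.14% among genes of at least 30 CPM). At a smaller rule, a ratio 25% above equality or its reciprocal, 1 member was higher (Ern1) and 3 were lower (Edem2, Calr and Syvn1). Of all tested genes 13.9% were higher and 13.5% lower by the smaller rule, and of genes of at least 30 CPM 10.9% and 10.7%. Counting error was smaller than the ratio for most members but not for all. The interval lay above equality for 10 members and below it for 13, together 74.2% of the 31, and included it for 8. Of all tested genes 30.6% had an interval above equality and 33.0% below. Intervals narrow with depth, and of the 6824 genes of at least 30 CPM 2404 had an interval above equality and 2764 below.

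**Figure D1:**
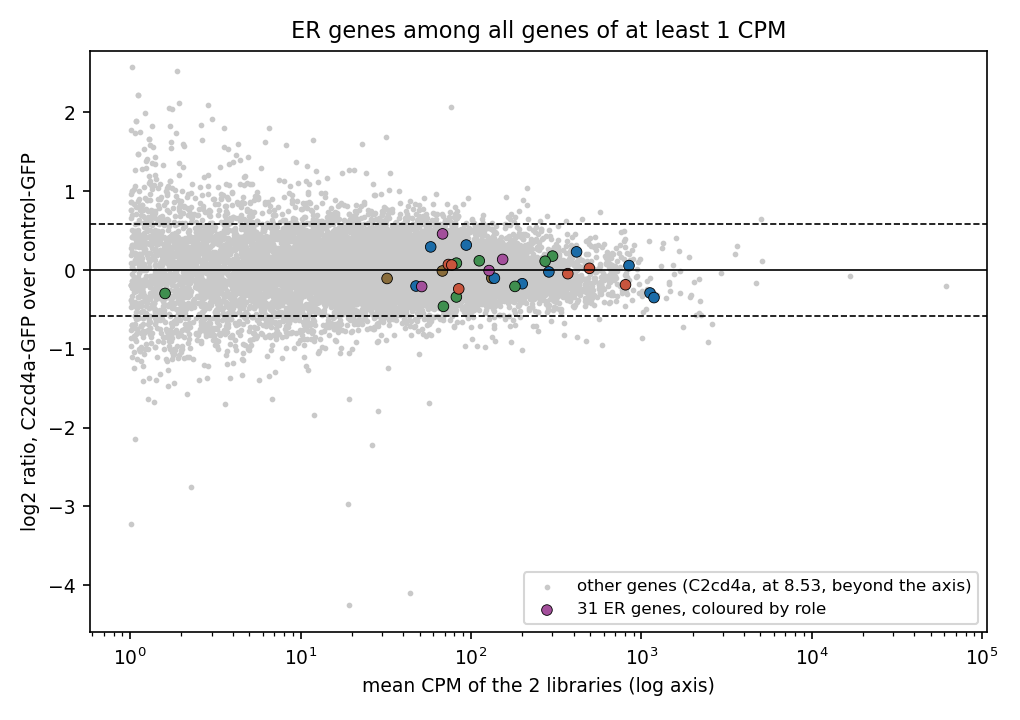
Log2 ratio of C2cd4a-GFP over control-GFP (vertical axis) against the mean CPM of both libraries (horizontal, log axis) for the 12759 genes of at least 1 CPM, with the 31 ER genes coloured by role (chaperones blue, disulfide enzymes red, ERAD green, sensors and Xbp1 purple, translocation, export and Wfs1 brown) and 1.5-fold marked by dashed lines. Every ER gene lies between the dashed lines, from -0.46 to 0.46, while C2cd4a, at 8.53, lies beyond the axis.

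The authors' deposited table holds a DESeq2 log2 fold change and adjusted p for each member, from libraries whose number no source states. In it, among the 31 members, 1 rose (Dnajb9), and 4 fell, Hsp90b1, Calr, Edem2 and Pdia4, at an adjusted p under 0.05, and 26 did not pass. These are 3.2% and 12.9% of the members, against 7.00% rising and 6.58% falling, 13.6% together, of the 14619 genes that carry an adjusted p there. At an unadjusted p under 0.05 the authors' deposited table lists 5 members with a positive and 5 with a negative fold change, 32.3% of them together against 25.9% of those genes (13.6% positive and 12.3% negative). At an adjusted p under 0.1 its shares over all genes were 9.82% rising and 8.84% falling, for 2 and 5 members, and under 0.01 they were 3.82% and 3.58%, for 0 and 2 members. The ratio of the 2 libraries and the authors' fold change had the same sign for 26 members. Opposite signs occurred for Sdf2l1, Pdia3, Sec61b and Wfs1, and the authors' deposited table gives 0.00 for Hspa5. The authors' values may include these same libraries.

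**Figure D2:**
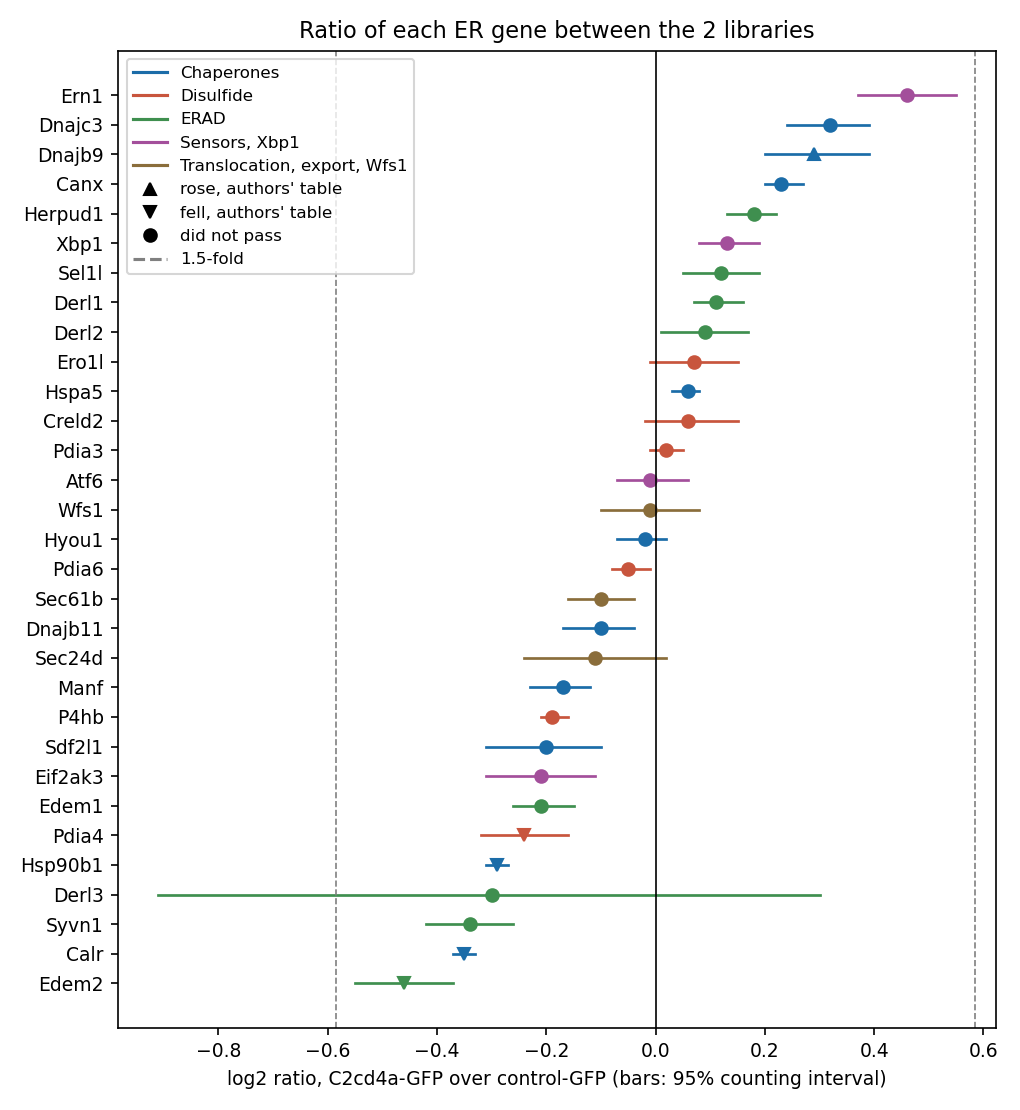
Log2 ratio of C2cd4a-GFP over control-GFP for each of the 31 ER genes, ordered by ratio, with 95% counting intervals as bars, colours for the role and 1.5-fold marked by dashed lines. Upward triangles mark the 1 gene that rose and downward triangles the 4 genes that fell in the authors' deposited table; the interval of Derl3 alone is wide, from -0.91 to 0.30.

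A cis element shared by many of these genes is the ER stress response element (ERSE), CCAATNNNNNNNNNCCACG, which binds NF-Y at its CCAAT end and ATF6 or XBP1 at its CCACG end. Promoter windows from RefSeq (build GRCm38.p6, 250 bases before to 50 after the annotated start) were matched for 27 of the 31 members, all but Atf6, Derl1, Hyou1 and Manf. An exact ERSE on either strand was found in 9 of the 27, or 33.3%, against 0.14% of the 27025 genes in the promoter table and 0.18% of its tested genes. These shares describe the windows and are not a test, since the element was picked as one that many of these genes share. The sites are shown because they mark in which matched windows the complete element was found. Members not listed may carry it outside the window. For Xbp1, P4hb and Herpud1 the window lies wholly before the gene start of the deposited coordinates. Each is written 5′ to 3′ in the direction of the element, with the bases that define it in capitals.
Hspa5: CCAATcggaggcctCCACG
Hsp90b1, distal: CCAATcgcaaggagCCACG
Hsp90b1, proximal: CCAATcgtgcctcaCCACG
Calr: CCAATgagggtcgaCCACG
Canx: CCAATcaccacgctCCACG
Dnajc3: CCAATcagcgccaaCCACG
Pdia6: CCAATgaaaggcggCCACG
Creld2: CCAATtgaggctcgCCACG
Syvn1: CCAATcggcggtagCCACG
Derl3: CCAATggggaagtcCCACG
The shorter ERSE-II, in which ATTGG and CCACG are separated by 1 base, was found in Herpud1 and Dnajb11 (7.4% of the 27, against 0.04% of the 27025 genes).
Herpud1: ATTGGgCCACG
Dnajb11: ATTGGcCCACG

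Members with an exact ERSE were found on both sides of equality. Of the 9, 4 had a log2 ratio above 0 and 5 below, from -0.35 (Calr) to 0.32 (Dnajc3). Their median was -0.05 against -0.06 for the 18 matched members without it in the window. The same element thus stood in the promoters of Calr and Hsp90b1, which fell in the authors' deposited table, and of Canx and Dnajc3, which were higher in the pair of libraries as counted. Among other elements, both strands searched, the XBP1-type element TGACGTGG occurred in 1 of the 27 windows (Sec24d; 1.07% of tested genes), and neither the cAMP response element TGACGTCA (3.81% of tested genes) nor the C/EBP-ATF element TGATGNAAT (0.52%) was in any of them. A letter match is not evidence of binding.

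The promoters of both lectin chaperones and both most abundant heat-shock-type chaperones are printed whole, on the strand of the gene, because they carry the element and their ratios as counted lay on both sides of equality. Capitals mark ERSE bases, read in reverse as CGTGG and ATTGG where the element lies on the other strand.
Hspa5, chr2:34771840-34772139, plus strand: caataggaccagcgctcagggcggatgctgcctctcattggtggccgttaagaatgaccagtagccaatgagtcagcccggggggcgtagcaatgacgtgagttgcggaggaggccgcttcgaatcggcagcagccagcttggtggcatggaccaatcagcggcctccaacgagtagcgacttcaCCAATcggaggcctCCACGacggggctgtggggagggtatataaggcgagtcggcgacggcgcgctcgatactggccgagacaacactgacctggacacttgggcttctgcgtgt
Hsp90b1, chr10:86705395-86705694, minus strand: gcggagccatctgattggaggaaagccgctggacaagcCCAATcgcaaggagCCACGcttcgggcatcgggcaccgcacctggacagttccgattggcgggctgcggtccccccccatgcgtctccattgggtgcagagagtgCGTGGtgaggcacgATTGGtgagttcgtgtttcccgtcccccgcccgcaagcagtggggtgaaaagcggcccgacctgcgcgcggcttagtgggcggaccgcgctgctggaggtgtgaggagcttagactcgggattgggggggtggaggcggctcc
Calr, chr8:84846882-84847181, minus strand: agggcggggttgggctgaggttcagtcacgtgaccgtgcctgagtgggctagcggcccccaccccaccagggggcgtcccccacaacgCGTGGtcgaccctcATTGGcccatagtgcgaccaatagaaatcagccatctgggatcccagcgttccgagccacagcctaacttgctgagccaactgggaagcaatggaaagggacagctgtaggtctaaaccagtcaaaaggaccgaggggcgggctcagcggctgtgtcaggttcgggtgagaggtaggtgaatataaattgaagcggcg
Canx, chr11:50325624-50325923, minus strand: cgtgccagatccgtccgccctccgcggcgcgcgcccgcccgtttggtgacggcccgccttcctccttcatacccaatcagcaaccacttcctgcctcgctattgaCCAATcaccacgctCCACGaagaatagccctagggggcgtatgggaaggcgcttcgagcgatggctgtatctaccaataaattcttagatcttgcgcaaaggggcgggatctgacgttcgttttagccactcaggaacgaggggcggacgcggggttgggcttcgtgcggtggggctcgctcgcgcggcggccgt
The Hspa5 element begins 65 bases before the annotated start, the Canx element 145 and the Calr element 162, and Hsp90b1 carries a pair, on opposite strands, whose first bases lie 212 and 107 bases before it.

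Chaperones of the ER lumen divided between lower and higher transcripts. Of 10 members, 6 had a ratio below 1 and 4 above, with a median of -0.06. The authors' deposited table has 2 that fell, 1 that rose and 7 that did not pass (DESeq2 adjusted p under 0.05). Over all genes with an adjusted p there, 6.58% fell and 7.00% rose, and of all tested genes 50.8% had a ratio below 1. Hspa5 encodes BiP, the ER Hsp70 that holds nascent chains and keeps the stress sensors inactive. It had 26424 counts (863 CPM) in C2cd4a-GFP and 25378 (829.9 CPM) in control-GFP, a log2 ratio of 0.06 (0.03 to 0.08). BiP transcript, the usual marker of the unfolded protein response, therefore differed by 4.0% between the libraries, and the authors' deposited table lists it at 0.00 (DESeq2 adjusted p = 0.995).

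Hsp90b1, the ER form of Hsp90 also called GRP94, had 30968 counts (1011 CPM) in C2cd4a-GFP and 37853 (1238 CPM) in control-GFP. The C2cd4a-GFP library was 18.3% lower, a log2 ratio of -0.29 (-0.31 to -0.27). In the authors' deposited table Hsp90b1 fell by 0.31 on the log2 scale (DESeq2 adjusted p = 0.0385). Hspa5 and Hsp90b1 thus did not keep their proportion. There were 0.853 Hspa5 counts per Hsp90b1 count in C2cd4a-GFP and 0.670 in control-GFP, a difference of log2 ratios of 0.35 (0.31 to 0.38, normal counting interval), and of 0.43 with the trends of exon length and GC content removed. This pair and the others compared as proportions were chosen after their values were seen.

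Calreticulin and calnexin, the soluble and the membrane-bound lectin that retain glycoproteins until they fold, differed in opposite directions as counted, but not once the trends of exon length and GC content were removed. Calr had 31954 counts (1044 CPM) in C2cd4a-GFP and 40678 (1330 CPM) in control-GFP. It was 21.5% lower, at -0.35 (-0.37 to -0.33), and in the authors' deposited table it fell by 0.31 (log2, DESeq2 adjusted p = 0.00895). Canx had 13779 counts (450.0 CPM) against 11729 (383.5 CPM), 17.3% higher, at 0.23 (0.20 to 0.27). The authors' deposited table gives Canx 0.19 and an adjusted p of 0.138 (DESeq2), so it did not pass. The number of Canx counts per Calr count went from 0.288 in control-GFP to 0.431 in C2cd4a-GFP, a difference of log2 ratios of 0.58 (0.54 to 0.62). With both trends removed Canx was at 0.01 and Calr at -0.25, a difference of 0.26.

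J-domain proteins, which deliver clients to BiP and stimulate its ATPase, were not uniform either. Dnajb9 (ERdj4), an XBP1 target that in mice also represses IRE1, had 1957 counts (63.9 CPM) in C2cd4a-GFP and 1595 (52.2 CPM) in control-GFP. Its log2 ratio was 0.29 (0.20 to 0.39), and in the authors' deposited table it rose by 0.43, just inside the threshold (DESeq2 adjusted p = 0.0497). Dnajc3 (p58IPK), a luminal co-chaperone of BiP, had 3188 against 2556 counts (104 and 83.6 CPM), a ratio of 0.32 (0.24 to 0.39). It was listed at 0.21 in the authors' deposited table and did not pass (DESeq2 adjusted p = 0.23). Dnajb11 (ERdj3), which holds unfolded clients for BiP, lay slightly below equality, with 4052 against 4349 counts and -0.10 (-0.17 to -0.04).

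The remaining chaperone-group members were within 15% of equality. Hyou1 (GRP170), the nucleotide exchange factor of BiP, had 8705 against 8840 counts and a ratio of -0.02 (-0.07 to 0.02). Manf, a small secreted ER protein that supports beta-cell survival in mice, had 5755 against 6484 counts and -0.17 (-0.23 to -0.12). Sdf2l1, a partner of ERdj3, had 1355 against 1558 counts and -0.20 (-0.31 to -0.10). None of these 3 passed in the authors' deposited table, where Sdf2l1 is listed with the opposite sign, at 0.05.

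Disulfide enzymes lay close to equality as counted, apart from Pdia4 and P4hb. With the trends of exon length and GC content removed, P4hb was at -0.04 and Pdia4 at -0.24, while Creld2 was at 0.30 and Ero1l at -0.17. Of 6 members 3 had a ratio above 1 and 3 below, with a median of -0.01. The authors' deposited table has 1 that fell and 5 that did not pass (DESeq2). Over all genes with an adjusted p there, 6.58% fell and 7.00% rose, and of all tested genes 50.8% had a ratio below 1. P4hb, the canonical protein disulfide isomerase, had 23124 counts (755 CPM) in C2cd4a-GFP and 26295 (859.9 CPM) in control-GFP, at -0.19 (-0.21 to -0.16). Its value in the authors' deposited table was -0.10 with a DESeq2 adjusted p of 0.574. Pdia4 (ERp72) had 2381 against 2807 counts (77.8 and 91.8 CPM), at -0.24 (-0.32 to -0.16), and in the authors' deposited table it fell by 0.27 (DESeq2 adjusted p = 0.0185).

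Pdia3 (ERp57), the isomerase that works with calnexin and calreticulin, had 15291 against 15047 counts, at 0.02 (-0.01 to 0.05). Pdia6 had 11154 against 11502 counts, at -0.05 (-0.08 to -0.01). Both were near equality. Ero1l, the oxidase that recharges protein disulfide isomerase and a hypoxia-responsive gene, had 2311 against 2199 counts, at 0.07 (-0.01 to 0.15). Creld2, an ER stress-inducible protein with isomerase activity, had 2413 against 2306 counts, at 0.06 (-0.02 to 0.15).

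**Figure D3:**
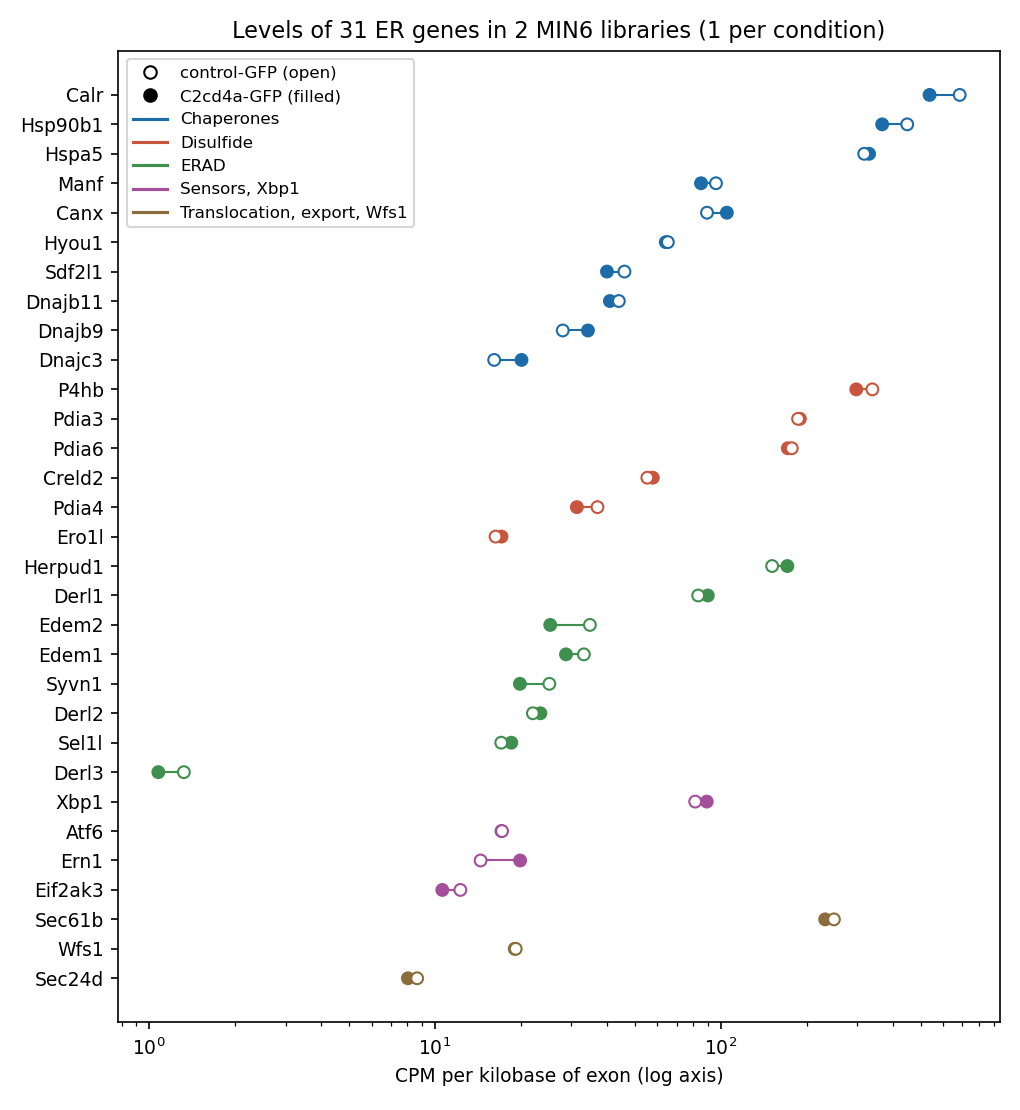
Level of each ER gene in CPM per kilobase of exon (horizontal, log axis) in the control-GFP library (open circles) and the C2cd4a-GFP library (filled circles), grouped and coloured by role and ordered by the control level within a role. Calr is highest at 685 and 537 and Derl3 lowest at 1.32 and 1.08, and the distance between the circles of a gene is small beside the spread between genes.

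ERAD genes also went both ways, and members of the HRD1 complex were on opposite sides as counted. Of 8 members 4 had a ratio above 1 and 4 below, with a median of -0.06. The authors' deposited table has 1 that fell and 7 that did not pass (DESeq2). Over all genes with an adjusted p there, 6.58% fell and 7.00% rose, and of all tested genes 50.8% had a ratio below 1. Edem2, which starts mannose trimming of glycoproteins bound for ERAD, was the lowest of the 31 members as counted. It had 1776 counts (58.0 CPM) in C2cd4a-GFP and 2442 (79.8 CPM) in control-GFP, 27.4% lower, at -0.46 (-0.55 to -0.37). In the authors' deposited table Edem2 fell by 0.44 (DESeq2 adjusted p = 0.00285). Edem1, which acts after it, had 5149 against 5940 counts, at -0.21 (-0.26 to -0.15), and missed the threshold of the authors' deposited table (-0.20, DESeq2 adjusted p = 0.293). With the trends of exon length and GC content removed Edem2, at -0.31, lay above Edem1, at -0.41, and above Hsp90b1, at -0.42.

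Syvn1 encodes the HRD1 ubiquitin ligase and Sel1l the adaptor that stabilises it. Syvn1 had 2217 counts (72.4 CPM) in C2cd4a-GFP and 2807 (91.8 CPM) in control-GFP, at -0.34 (-0.42 to -0.26), and in the authors' deposited table it missed the threshold (-0.27, DESeq2 adjusted p = 0.0613). Sel1l had 3565 against 3283 counts (116 and 107 CPM), at 0.12 (0.05 to 0.19). Sel1l counts per Syvn1 count were 1.61 in C2cd4a-GFP and 1.17 in control-GFP, a difference of log2 ratios of 0.46 (0.35 to 0.56). With the trends of exon length and GC content removed both lay below equality, Sel1l at -0.08 and Syvn1 at -0.22, a difference of 0.14. Herpud1, a scaffold of the same complex, had 9786 against 8648 counts (320 and 283 CPM), at 0.18 (0.13 to 0.22), with a DESeq2 adjusted p of 0.158 in the authors' deposited table.

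The derlins, membrane proteins of the retrotranslocation channel, were near equality where they could be measured well. Derl1 had 8667 against 8010 counts, at 0.11 (0.07 to 0.16), and Derl2 had 2591 against 2436 counts, at 0.09 (0.01 to 0.17). Derl3 was hardly expressed, with 44 against 54 counts, and its ratio of -0.30 (-0.91 to 0.30) could not be told from equality at this depth. In CPM per kilobase of exon, Derl3 was at 1.08 and 1.32 while Derl1 was at 90.0 and 83.3, in C2cd4a-GFP and control-GFP.

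Among the sensors, as counted, transcripts for IRE1 were higher, those for PERK lower and those for ATF6 near equality. Ern1 (IRE1), the kinase and endonuclease that splices Xbp1 mRNA, had 2415 counts (78.9 CPM) in C2cd4a-GFP and 1755 (57.4 CPM) in control-GFP. It was 37.4% higher, at 0.46 (0.37 to 0.55), the highest ratio of the 31 members. The authors' deposited table lists Ern1 at 0.42, without passing (DESeq2 adjusted p = 0.0676). Eif2ak3 (PERK), the eIF2 alpha kinase, had 1459 counts (47.6 CPM) against 1685 (55.1 CPM), at -0.21 (-0.31 to -0.11), and Atf6, the membrane-tethered transcription factor, had 3901 against 3915 counts, at -0.01 (-0.07 to 0.06). Eif2ak3 and Atf6 both missed the threshold of the authors' deposited table (DESeq2 adjusted p = 0.382 and 0.879). With the trends of exon length and GC content removed, Eif2ak3 was at -0.24 and Atf6 at -0.28. The number of Ern1 counts per Eif2ak3 count was 1.66 in C2cd4a-GFP and 1.04 in control-GFP, a difference of log2 ratios of 0.67 (0.53 to 0.80), and of 0.68 with the trends removed.

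Xbp1, whose spliced form encodes the transcription factor of the IRE1 arm, had 4918 counts (161 CPM) in C2cd4a-GFP and 4475 (146 CPM) in control-GFP, at 0.13 (0.08 to 0.19). Gene counts do not separate spliced from unspliced Xbp1, so the activity of IRE1 cannot be read from them. Its value in the authors' deposited table was 0.19 with a DESeq2 adjusted p of 0.235.

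The last 3 members act at the entry to, the exit from and the membrane of the ER, and lay slightly below equality as counted. With the trends of exon length and GC content removed, Sec61b was at 0.25, Wfs1 at 0.14 and Sec24d at -0.12. Sec61b, a subunit of the translocation channel, had 3915 against 4196 counts, at -0.10 (-0.16 to -0.04). Sec24d, a cargo-binding subunit of the COPII coat, had 949 against 1021 counts, at -0.11 (-0.24 to 0.02). Wfs1, the ER membrane protein lost in Wolfram syndrome, a disorder with beta-cell failure, had 2072 against 2087 counts, at -0.01 (-0.10 to 0.08). All 3 missed the threshold in the authors' deposited table, which lists Sec61b and Wfs1 with the opposite sign, at 0.11 and 0.05.

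Per kilobase of exon the order of the members was nearly the same in both libraries. In control-GFP the highest were Calr (685 CPM per kilobase), Hsp90b1 (449), P4hb (339), Hspa5 (317) and Sec61b (249), and in C2cd4a-GFP the same 5 led, with Hspa5 (330) ahead of P4hb (298). The sensors Ern1, Eif2ak3 and Atf6 lay far below, between 10.6 and 19.8 CPM per kilobase in C2cd4a-GFP and between 12.3 and 17.1 in control-GFP. Of the 31 members 12 kept their rank, and the largest move was 5 places, for Dnajc3 from 27 to 22 and for Ern1 from 28 to 23. The 31 genes together took 0.790% of all counts in C2cd4a-GFP and 0.818% in control-GFP, a log2 ratio of the scaled sums of -0.09 (-0.10 to -0.09). Calr, Hsp90b1, P4hb, Hspa5 and Pdia3 supplied 53.6% and 57.2% of these counts, so the sum mainly follows those 5 genes.

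The wider ER machinery, taken from 7 further lists, had list medians near 0, apart from the PERK arm and the substrates of IRE1-dependent decay. These lists were drawn up with earlier results of these data known. Of 44 tested genes of ER folding outside the members the median was -0.05, of 36 ERAD genes 0.01, of 34 translocon, glycosylation and signal peptidase genes -0.02, of 27 COPII and ER-Golgi intermediate genes 0.02, and of 19 other transducers and cofactors of the response -0.03. Of all tested genes 4.23% were higher and 4.23% lower by the 1.5-fold rule. In these lists, in the order given, 0, 0, 0, 1 and 2 genes were higher, and 0, 0, 0, 0 and 1 lower.

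Those higher by size were Creb3l1 and Map3k5 among the transducers and Sec16b in the export list, and the lower was Creb3l3. Creb3l1, an ER-tethered transcription factor related to ATF6, had 243 counts (7.94 CPM) in C2cd4a-GFP and 136 (4.45 CPM) in control-GFP, at 0.84 (0.53 to 1.15). By the authors' deposited table it rose (0.78, DESeq2 adjusted p = 0.000123). Creb3l3, another factor of that family best known from liver, had 180 against 322 counts, at -0.84 (-1.11 to -0.57). By the authors' deposited table it fell (-0.90, DESeq2 adjusted p = 7.73e-08). These relatives therefore differed in opposite directions, while Atf6 was near equality as counted and at -0.28 with the trends of exon length and GC content removed. Sec16b, which organises ER exit sites, had 582 against 336 counts, at 0.79 (0.59 to 0.99), a gene that rose by the authors' deposited table (DESeq2 adjusted p = 0.000435). Map3k5 (ASK1), a stress kinase acting downstream of IRE1, had 617 against 395 counts, at 0.64 (0.46 to 0.83), and rose there too (DESeq2 adjusted p = 0.0318). Nfyb, a subunit of the factor that binds the CCAAT end of the ERSE, had 2248 against 1694 counts, at 0.41 (0.31 to 0.50), and by the authors' deposited table it rose (DESeq2 adjusted p = 0.00244).

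In the ER folding list, of 46 genes with a DESeq2 adjusted p, the authors' deposited table has 1 that rose and 3 that fell. For this and the next lists, the shares over all genes with an adjusted p there were 7.00% rising and 6.58% falling. Ero1lb, the oxidase isoform enriched in the endocrine pancreas, had 17296 counts (565 CPM) in C2cd4a-GFP and 22885 (748 CPM) in control-GFP, at -0.41 (-0.43 to -0.38), and by the authors' deposited table it fell (-0.43, DESeq2 adjusted p = 3.59e-05). The other oxidase gene, the member Ero1l, was close to equality as counted. Fkbp9, an ER prolyl isomerase, was at -0.50 (-0.57 to -0.43) and Rcn1, a calcium-binding protein of the ER, at -0.28 (-0.46 to -0.10), and both fell in the authors' deposited table, while Dnajb14, a membrane J-domain protein, rose there, at 0.26 (0.05 to 0.47) in the pair. In the ERAD list, of 37 such genes, the authors' deposited table has 4 that rose and 1 that fell. The ERAD ubiquitin ligase gene March6 was at 0.39 (0.34 to 0.44), Herpud2 at 0.36 (0.22 to 0.50), Erlin1 at 0.35 (0.28 to 0.43) and Rhbdd1 at 0.26 (0.16 to 0.36), and the ligase gene Rnf5, at -0.43 (-0.53 to -0.32), was the one that fell. Of the 28 export genes with an adjusted p, Sec16b rose and Preb, the exchange factor that starts COPII assembly, fell in the authors' deposited table, at -0.27 (-0.35 to -0.20) in the pair. In the translocon list 0 of 35 genes passed in the authors' deposited table (DESeq2), and its most abundant genes by CPM, Rpn2 and Sec61a1, were at -0.10 (-0.13 to -0.08) and -0.16 (-0.20 to -0.13).

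**Figure D4:**
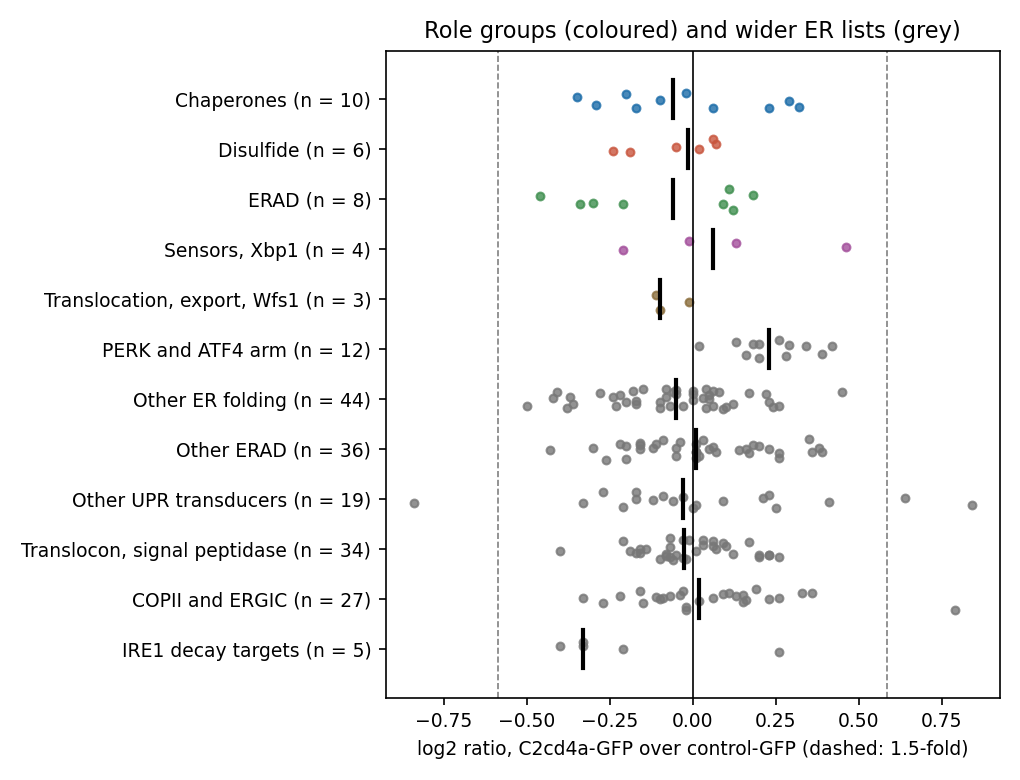
Log2 ratios of C2cd4a-GFP over control-GFP for the tested genes of the 5 role groups (coloured) and the 7 wider ER lists (grey), 1 point per gene with a vertical bar at each list's median and dashed lines at 1.5-fold. The 12 genes of the PERK and ATF4 arm all lie above 0 with a median of 0.23, while the role groups have medians from -0.10 to 0.06.

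Genes of the PERK and ATF4 arm had ratios on 1 side as counted. All 12 had a ratio above 1, though the interval of Bbc3 included equality (0.02, -0.06 to 0.11), with a median of 0.23, against -0.02 for the members. The authors' deposited table has 4 that rose, 0 that fell and 8 that did not pass (DESeq2 adjusted p under 0.05). Over all genes with an adjusted p there, 7.00% rose and 6.58% fell. Of the 12759 tested genes, 6273 had a ratio above 1. At the 1.5-fold rule 0 of the 12 were called, against 4.23% of all tested genes in each direction. With the trends of exon length and GC content removed the median was 0.40, and Eif2s1, which encodes eIF2 alpha, went from 0.13 to -0.05. Trib3, a pseudokinase induced by ATF4 and CHOP, had 13704 counts (448 CPM) in C2cd4a-GFP and 10204 (334 CPM) in control-GFP, at 0.42 (0.39 to 0.46). Atf3 was at 0.39 (0.31 to 0.47), Ddit3, which encodes CHOP, at 0.34 (0.28 to 0.40) and Ppp1r15b, a subunit of an eIF2 alpha phosphatase, at 0.28 (0.23 to 0.34). Atf4 itself was at 0.20 (0.18 to 0.23) and missed the threshold of the authors' deposited table (DESeq2 adjusted p = 0.097). The difference between this arm and the members was not tested, because the lists were chosen with results known.

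Transcripts reported in other cells as substrates of IRE1-dependent decay were few here. Of 9 listed genes 5 reached 1 CPM, with a median of -0.33. Of these, 1 had a ratio above 1 and 4 below, where 50.8% of all tested genes lay below. Bloc1s1, the best-known substrate, had 1757 against 2029 counts, at -0.21 (-0.30 to -0.12), Hgsnat was at -0.33 (-0.42 to -0.23), Ergic3 at -0.33 (-0.38 to -0.28) and Tapbp at -0.40 (-0.46 to -0.35), whereas Pmp22, with 72 against 60 counts, was at 0.26 (-0.25 to 0.78). Only Tapbp passed in the authors' deposited table, where it fell (DESeq2 adjusted p = 0.0407). These genes other than Tapbp were named after their values were seen. With the trends of exon length and GC content removed, the median of the 5 was -0.06 and Bloc1s1 was at 0.18.

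The ratio of these libraries depended on exon length and base composition, which bears on differences as small as those of the ER genes. Over 12216 tested genes with a transcript sequence, Spearman's rho of the log2 ratio was 0.35 with exon length and -0.47 with GC content, and over the 31 members it was 0.19 and -0.38. Genes are not independent replicates, and they share these libraries. With both trends removed the members' median was -0.02, and Wfs1, Sel1l, Sec61b, Sdf2l1, Pdia6, Ero1l and Derl2 changed sign, while Pdia3 went from 0.02 to -0.00. Each of the 5 members that passed in the authors' deposited table kept its direction in the pair, with Calr at -0.25, Hsp90b1 at -0.42, Pdia4 at -0.24, Edem2 at -0.31 and Dnajb9 at 0.19. Ern1 stayed at 0.44, whereas Canx went from 0.23 to 0.01 and Dnajc3 from 0.32 to 0.08. Their longest transcripts have a GC content of 42.2% and 43.2%, that of Ern1 50.6%. Other members moved away from equality. Edem1 went down from -0.21 to -0.41 and Atf6 from -0.01 to -0.28. Herpud1 went up from 0.18 to 0.34, Xbp1 from 0.13 to 0.31 and Creld2 from 0.06 to 0.30.

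**Figure D5:**
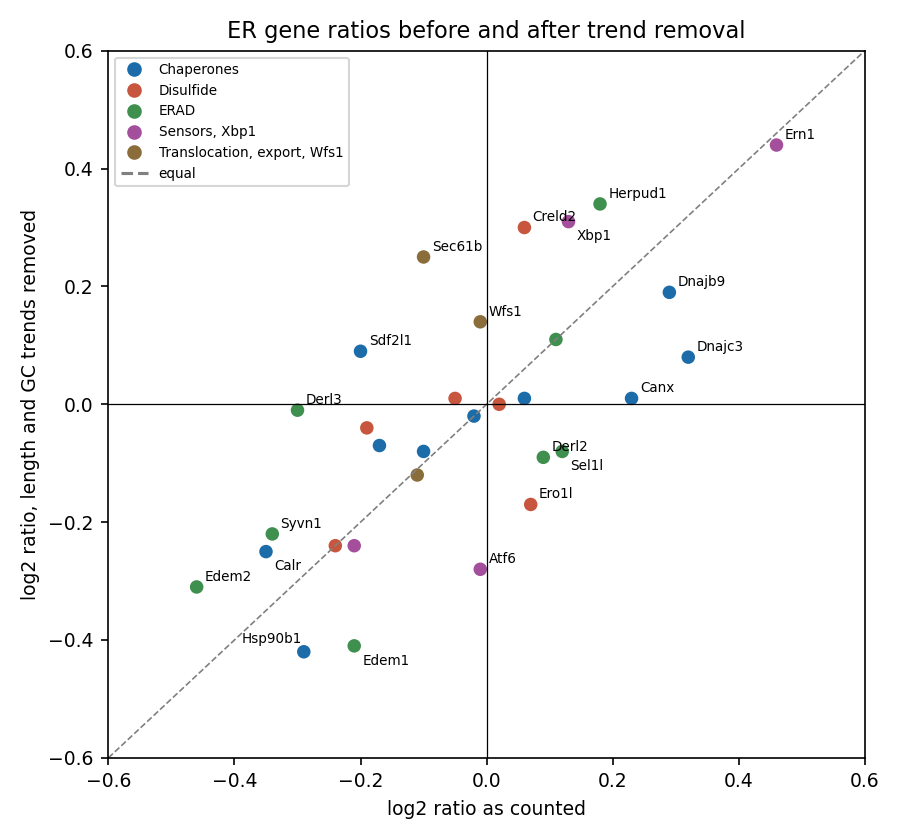
Log2 ratio of each ER gene after removal of the trends with exon length and GC content (vertical axis) against the ratio as counted (horizontal axis), coloured by role, with a dashed line where both are equal. Ern1 (0.46 and 0.44) stays close to the line, Canx (0.23 and 0.01) and Dnajc3 (0.32 and 0.08) drop towards 0, and Calr, Hsp90b1 and Edem2 stay below 0 on both axes.

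Exons of 7 members overlap a gene on the opposite strand in the deposited coordinates (mm10). The overlap was 49.3% of the exon length for Derl1, 38.9% for Calr and 34.2% for P4hb, but the opposite genes had at most 23 counts in a library. Syvn1 shares 2.4% of its exon bases with Mrpl49, which had 3765 and 3871 counts. The libraries were directional, but no source states that the counting took strand into account, so reads of these short stretches cannot be assigned with certainty.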

How the data were processed

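Per the labels' protocols, libraries of MIN6 RNA were directional and were read from both ends over 42 bp. The submitters' processing notes name STAR 2.5.2b, featureCounts, Subread 1.5.2, DESeq2 1.14.1 and mm10, without roles. The authors deposited raw counts per gene with the summed exon length beside them, and their log2 fold change with p-values and adjusted p-values, taken as DESeq2's from the sheet title. The authors also deposited a whole-number normalized value for each condition, treated as a score, with no stated number of libraries.

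Counts were scaled by TMM in edgeR 4.0.16 (R 4.3.3), with factors of 1.015 and 0.985. Intervals are exact Clopper-Pearson at 95%, conditional on the sum of both counts. They cover counting error only, since no molecular identifiers are named. Proportions of 2 genes have a normal interval on the log scale. With 1 library per group no p-value was computed, and the words rose and fell are kept for genes that the authors' deposited table lists below an adjusted p of 0.05. GC content is that of the longest GENCODE M21 transcript of a gene, and trends were removed by lowess with a span of 0.3 (statsmodels 0.14.6), first on exon length and then on GC content. The size rule was checked on simulated data. That check cannot cover the spread between cultures, of which 1 library per group gives no measure.

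Every member is named. Of each wider list, up to 6 genes that pass in the authors' deposited table are named by largest ratio, or the 2 of highest CPM where none does. PERK-arm genes could be named as well. The members, lists and tests were chosen with earlier results of these data known. The background at 30 CPM was added after seeing the data.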

Additional observations from a re-analysis of the deposited data

How the results depend on the processing

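With DESeq2 1.42.0 size factors, upper quartile scaling, thinning to the same total or a prior count of 2, each of the 31 member ratios stayed within its counting interval. Total-count scaling moved the members' median from -0.02 to 0.02 and changed the sign of Wfs1, Hyou1 and Atf6. The authors' normalized values changed the sign of 4 members and removal of the exon length trend alone that of 3. No member that passed in the authors' deposited table changed sign under any of these alternatives. The count of members past the size rule was 0 in each direction at 1.5-fold under every scaling, trend and filter alternative and at 2-fold too, and with the ratio 25% above equality or its reciprocal it was 1 higher and 3 lower. The mean over members was -0.04.

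With a limit of 0.1 on the DESeq2 adjusted p of the authors' deposited table, 2 members rose and 5 fell (9.82% and 8.84% over all genes). At 0.01 there were 0 rising and 2 falling (3.82% and 3.58%), where 5 had a positive and 5 a negative fold change at an unadjusted p under 0.05 (13.6% and 12.3%). Differences within pairs of members with both trends removed were added after seeing the data. The cause of these changes was not tested, beyond the threshold itself. Leaving out a replicate was not possible with 1 library per group. No paired analysis was possible because each group has 1 library and the labels give no replicate numbers. Differences of a size near the spread between cultures cannot be recognised from these libraries, and Derl3, with 44 and 54 counts, is limited by depth as well.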

Other observations

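Outside the 31 members, 28 genes of the RefSeq promoter table carry an exact ERSE. Of these 23 matched a row of the count table, and 9 reached a mean of 1 CPM. As counted, the log2 ratios of these 9 had a median of 0.26, with 7 above and 2 below 0, where 50.8% of all tested genes lay below. No median with the trends of exon length and GC content removed is given for them. The 9 include Xlr3a, Xlr3b and Xlr3c, by name genes of 1 family, at -0.02, 0.26 and 0.14, so they are not all separate cases. Acacb, the mitochondrial-surface acetyl-CoA carboxylase, had 163 counts in C2cd4a-GFP and 55 in control-GFP, at 1.57 (1.12 to 2.03), and by the authors' deposited table it rose (DESeq2 adjusted p = 1.04e-05). Ero1lb, at -0.41 (-0.43 to -0.38), fell there. Adcy3, an adenylyl cyclase, had 86 against 54 counts, at 0.67 (0.16 to 1.19), and missed the threshold of the authors' deposited table (DESeq2 adjusted p = 0.117). Alg12, a mannosyltransferase of glycan assembly in the ER, had 467 against 416 counts, at 0.17 (-0.03 to 0.36). These genes were found by sequence, and their values were read afterwards.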
